A study of Bos taurus with 32 samples.

Results

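The subcortical maternal complex is a protein assembly of the mammalian oocyte and early embryo, and 6 of its genes and close relatives were followed here through cattle preimplantation development. The members were the rows of the 4 stage tables whose gene name was NLRP5, NLRP2, OOEP, PADI6, TLE6 or ZBED3, which are 6 of the 19834 genes in any table. Of these, 5 had a row in all 4 tables, which share 14225 genes, and ZBED3 had a row in the 4-6 cell and 9-16 cell tables. RNA came from pools of 15 in vitro produced bovine embryos. Embryos were cultured with the 3 cytokines FGF2, LIF and IGF1, together called FLI, or without that addition as controls. Pools were taken as 4-6 cell embryos, 9-16 cell embryos, morulae and blastocysts, with 4 libraries in each of the 8 groups, and every library was made with the same low-input cDNA kit, SMART-Seq v4. The labels do not say whether pools of a group came from separate cultures, and p-values then measure only the spread between pools, which may be technical.

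The complex lies beneath the oocyte membrane and forms part of the cytoplasmic lattices, fibres that store maternal protein. NLRP5, OOEP and TLE6 make up its core in mice, and in mice the loss of these genes in the mother stops her embryos after the first cleavages. The transcripts are made in the growing oocyte, and embryos are known to clear such maternal transcripts around the time they activate their own genome. The question set by the design was how the level of each transcript moved over the 4 stages and whether FLI altered it. In pooled embryos, fewer cells that hold a transcript and less of it per cell cannot be told apart. Maternal transcript that remains and transcript newly made by the embryo cannot be told apart either. Levels were read as a share of each library and not as an amount per embryo. Loss of a transcript and growth of the other RNA therefore both lower its level.

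On assembly ARS-UCD1.2, in the coordinates of the deposited tables, the genes lie on 5 chromosomes. NLRP5 (ENSBTAG00000013247), an NLR-family scaffold also called MATER, spans chr18:63478435-63493232 on the + strand and has 3561 exonic bases. NLRP2 (ENSBTAG00000047953), a relative of NLRP5 that is also a maternal effect gene in mice, spans chr18:62409111-62438024 on the - strand with 3530 exonic bases. OOEP (ENSBTAG00000019600), a small KH-domain protein, spans chr9:12765347-12766533 on the - strand with 1045 exonic bases. OOEP lies inside the span of KHDC3L, a KH-domain partner of the complex on the + strand, and the 2 genes share 0 exonic bases. PADI6 (ENSBTAG00000038945), a member of the peptidylarginine deiminase family that is needed for the lattices in mice, spans chr2:135238391-135258340 on the - strand with 2052 exonic bases. TLE6 (ENSBTAG00000001152), a Groucho-family protein, spans chr7:20778581-20790166 on the - strand with 1889 exonic bases. ZBED3 (ENSBTAG00000052845), a zinc finger protein tied to spindle position in mouse oocytes, spans chr10:8234994-8235638 on the - strand with 1 exon of 645 bases.

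Recovered depth was between 12.4 and 89.2 M reads in 4-6 cell libraries, between 7.01 and 50.6 M in 9-16 cell libraries, between 11.6 and 114 M in morula libraries and between 62.6 and 169 M in blastocyst libraries. Control morula replicate 4, with 83409 reads, and control blastocyst replicate 6, with 2995 reads, were too shallow to read and were left out, which left 30 libraries. Stage labels were checked with lineage markers: the summed level of 7 listed trophectoderm markers was 221 to 607 CPM at the 4-6 cell stage and 30746 to 58502 CPM in blastocysts. KRT8 and KRT18 made up most of the blastocyst sum. KRT8 averaged 35362 CPM in FLI and 19982 CPM in control blastocysts, and KRT18 8630 and 8439 CPM. CDX2 averaged 24.2 and 24.5 CPM at the 4-6 cell stage and 55.5 and 61.7 CPM in blastocysts. GATA2 alone of the 7 went the other way, from 413 to 155 CPM in FLI and from 432 to 370 CPM in control pools. Cumulus cell markers, of which 7 of 12 were listed, summed to 194 to 392 CPM at the first 2 stages and to 14.7 to 24.7 CPM at the last 2. Within that list the markers differed. At the step to the morula HAS2 had log2 differences of -5.74 in FLI and -5.81 in control embryos, STAR -3.67 and -3.80 and VCAN -2.75 and -3.40, all called lower. At the step before, AMH was called higher at 1.36 in both treatments and TNFAIP6 at 1.39 and 1.36, and CYP19A1 was called at neither step. The part of these markers in the results was not tested.

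Of the early libraries, 3 stood apart in composition. As a measure, the median log2(CPM + 1) of 1378 genes shorter than 1000 bases was set against that of 2724 genes longer than 4000 bases, with the members left out. The short minus long value was -0.43 in FLI 4-6 cell replicate 6 and -0.21 in control 4-6 cell replicate 6, against -2.60 to -2.23 in the other 6 libraries of that stage. It was -0.52 in control 9-16 cell replicate 11, against -2.10 to -1.83 in the other 7. These 3 libraries were also the deepest of their stage, with 82.9 to 89.2 M reads and 50.6 M reads. In morulae the value was -1.30, -1.18, -0.40 and 0.12 in FLI replicates 2, 4, 6 and 7, against 1.19, 0.95 and -0.41 in control replicates 1, 3 and 7, so it also moved with treatment there. In blastocysts it was -1.07, 0.54, -0.06 and 0.32 in FLI replicates 5 to 8, against 0.22, -0.91 and -1.04 in control replicates 5, 7 and 8. The value was thus higher in all morula and blastocyst pools than in the early libraries that did not stand apart. Results that rest on the 3 libraries are given with and without them, and the part of this difference in each result was not tested beyond that.

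NLRP5, NLRP2 and PADI6 fell to a small fraction of their 4-6 cell level by the morula stage, while OOEP and TLE6 had a measurable level up to the blastocyst. In CPM, reads scaled to library size jointly over all stages, NLRP5 averaged 351 ± 134 in FLI pools of the 4-6 cell stage, 188 ± 39.8 at the 9-16 cell stage, 1.72 ± 0.229 in morulae and 0.622 ± 0.381 in blastocysts (SD, n = 4 each). In control pools NLRP5 averaged 371 ± 116, 175 ± 74.3 (n = 4 each), 1.66 ± 0.579 and 0.435 ± 0.331 CPM (n = 3 each) in the same order of stages. The morula mean was therefore 0.49% of the 4-6 cell mean in FLI pools and 0.447% in control pools. By the blastocyst stage 0.177% was left in FLI pools and 0.117% in control pools.

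**Figure D1:**
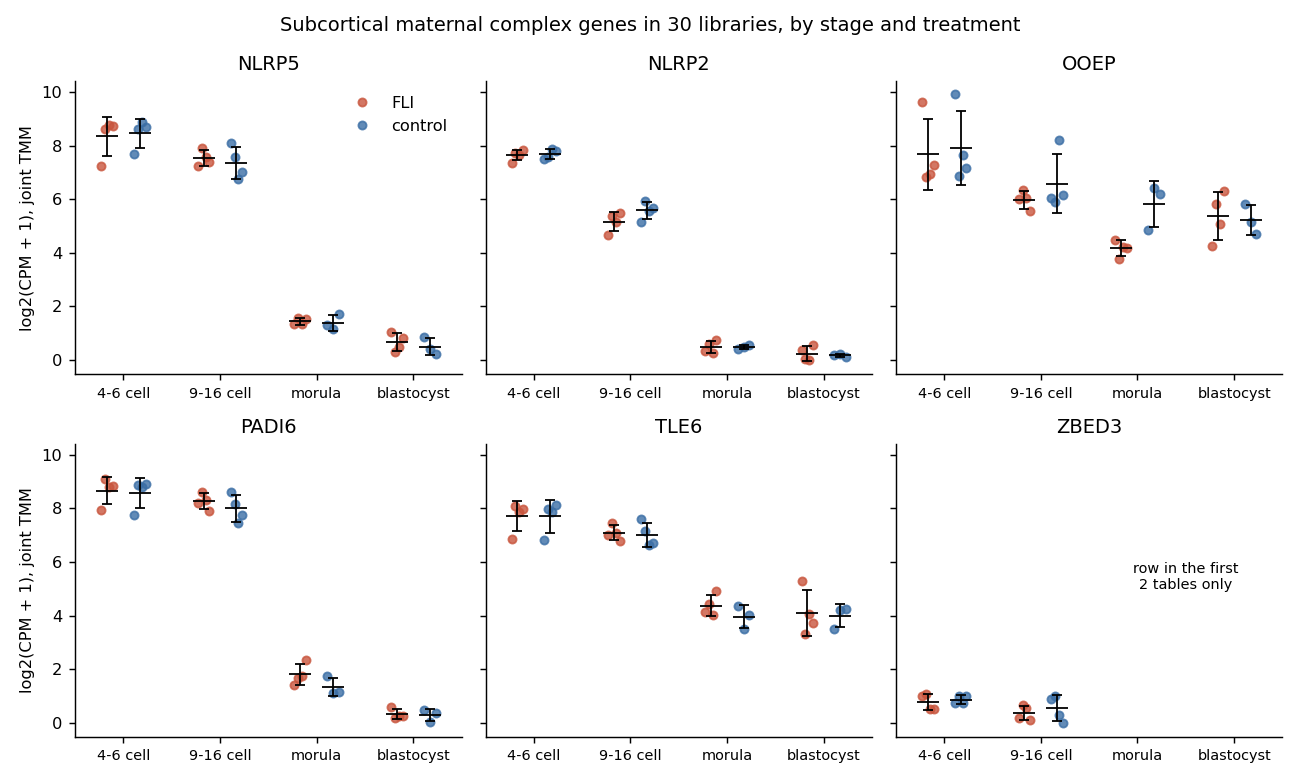
Level of each member in the 30 libraries, as log2(CPM + 1) after joint scaling, by stage; each point is 1 pool (FLI left, control right), with the mean and SD in black. NLRP5, NLRP2 and PADI6 sit at or below 4.06 CPM in every morula and blastocyst pool, while OOEP stays at 12.7 CPM or more and TLE6 at 8.91 CPM or more throughout, and ZBED3 lies near 0 at both stages where it was listed.

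PADI6 followed the same course from a higher start. It averaged 422 ± 127, 310 ± 63.6, 2.58 ± 1.03 and 0.249 ± 0.161 CPM over the 4 stages in FLI pools (SD, n = 4 each). It averaged 400 ± 125 and 268 ± 95.6 (n = 4 each) and then 1.56 ± 0.656 and 0.234 ± 0.193 CPM (n = 3 each) in control pools. In 9-16 cell pools PADI6 still held 73.6% of its 4-6 cell mean in FLI pools and 66.9% in control pools. By the morula stage the share was 0.612% in FLI pools and 0.391% in control pools, and in blastocysts 0.0591% and 0.0584%.

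NLRP2 was the earliest to fall. In FLI pools it averaged 201 ± 26.1, 35.8 ± 8.36, 0.409 ± 0.219 and 0.195 ± 0.227 CPM over the 4 stages (SD, n = 4 each). In control pools it averaged 208 ± 27.8 and 47.8 ± 10.6 (n = 4 each) and then 0.389 ± 0.0697 and 0.125 ± 0.0466 CPM (n = 3 each). By the 9-16 cell stage 17.8% of the 4-6 cell mean was left in FLI pools and 23% in control pools. No 9-16 cell pool overlapped any 4-6 cell pool in either treatment. In the later limma test of this step, 5435 of 13388 genes in FLI and 4833 in control embryos had an unadjusted p under 0.05. In blastocysts the reads per library numbered 42, 2, 0 and 40 in FLI replicates 5 to 8 and 9, 15 and 4 in control replicates 5, 7 and 8. The count of 0 in FLI replicate 7, among 156 M reads, allows up to 3 reads or 0.0263 CPM, an upper limit that covers counting error only.

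TLE6 did not fall to the same depth. It averaged 218 ± 69.7, 137 ± 27.8, 20.4 ± 6.28 and 18.6 ± 13 CPM over the 4 stages in FLI pools (SD, n = 4 each). In control pools it averaged 219 ± 74.2 and 134 ± 43.4 (n = 4 each) and then 15 ± 4.58 and 15.3 ± 4.36 CPM (n = 3 each). Of the 4-6 cell mean, 9.33% was left in FLI morulae and 6.83% in control morulae, and 8.53% and 6.97% in blastocysts. Blastocyst libraries held 927 to 5559 TLE6 reads in FLI pools and 621 to 1700 in control pools, so the blastocyst level rested on at least 621 reads per pool.

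OOEP held the largest share of its 4-6 cell mean in blastocysts of both treatments, though not in FLI morulae, where TLE6 held more, and its level varied widely between libraries of the early stages. At the 4-6 cell stage it read 789, 114, 122 and 154 CPM in FLI replicates 6 to 9 and 967, 117, 203 and 142 CPM in control replicates 6 to 9. In 9-16 cell pools it read 63.2, 80.2, 64.4 and 45.7 CPM in FLI replicates 10 to 13 and 71, 298, 65.8 and 58.4 CPM in control replicates 10 to 13. The single highest pool of each of these 3 groups, with a gap to the rest, was FLI replicate 6, control replicate 6 and, at the 9-16 cell stage, control replicate 11, the libraries that stood apart; no FLI 9-16 cell pool stood out.

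The libraries that stood apart at the 4-6 cell stage were low in the longer members. The deposited signal of OOEP was 843 and 1079 in FLI and control replicate 6 of the 4-6 cell stage, against 139 to 246 in the other 6 libraries. NLRP5 read 162 and 227 there against 482 to 570, PADI6 259 and 237 against 542 to 659, and TLE6 124 and 124 against 282 to 339. NLRP2 read 176 and 201 against 234 to 288. In both 4-6 cell libraries, 1 of each treatment, OOEP was thus high and these other 4 members low. ZBED3, the shortest member at 645 bases, was not high there. It read 1.08 and 0.717, within the range of 0.502 to 1.31 in the other 6 libraries, all on few reads. In control 9-16 cell replicate 11 OOEP read 368 against 55 to 96 in the other 7 libraries of that stage, and NLRP5 read 133 against 156 to 313, PADI6 214 against 263 to 467 and TLE6 121 against 125 to 220. NLRP2 did not follow there: it read 57.1, within the range of 29 to 75.3 in the others.

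**Figure D2:**
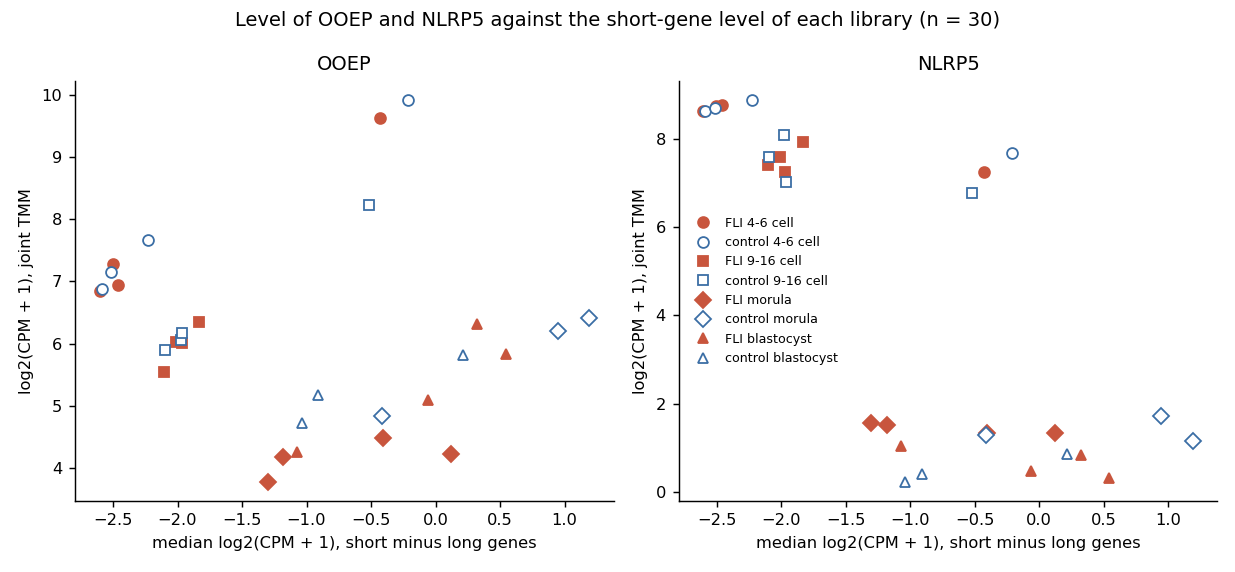
Level of OOEP (left) and NLRP5 (right) in each of 30 libraries, as log2(CPM + 1), against the library's short minus long value, the median log2(CPM + 1) of genes under 1000 bases minus that of genes over 4000 bases; filled symbols are FLI, open symbols control, and shapes mark stages. Within the 4-6 cell and 9-16 cell stages the libraries at -0.52 to -0.21 hold the highest OOEP and lower NLRP5, and the 2 morula libraries with the highest values, 0.95 and 1.19, hold the most OOEP of their stage. The blastocyst libraries at 0.22 to 0.54 likewise hold the most OOEP of theirs.

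With the 3 libraries left out, OOEP averaged 130 ± 21.4 CPM in FLI pools and 154 ± 44.1 CPM in control pools of the 4-6 cell stage (SD, n = 3 each). The share of that mean left was then 48.7% at the 9-16 cell stage, 13.3% in morulae and 35.6% in blastocysts of FLI embryos. In control embryos it was 42.3%, 40% and 25.1% at the same stages. With all 30 libraries the shares were 21.5%, 5.85% and 15.7% in FLI pools and 34.5%, 17.2% and 10.8% in control pools. The group mean of OOEP was thus 5.85% or more of its 4-6 cell mean at every later stage, with or without the 3 libraries. NLRP5, NLRP2 and PADI6 were under 1% from the morula onwards. The short minus long value also moved with stage. It was -2.60 to -2.23 in the 4-6 cell libraries that remained, -1.30 to 1.19 in morulae and -1.07 to 0.54 in blastocysts. The OOEP shares without the 3 libraries therefore compare pools of unlike composition, and the part of this in the shares was not tested.

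**Figure D3:**
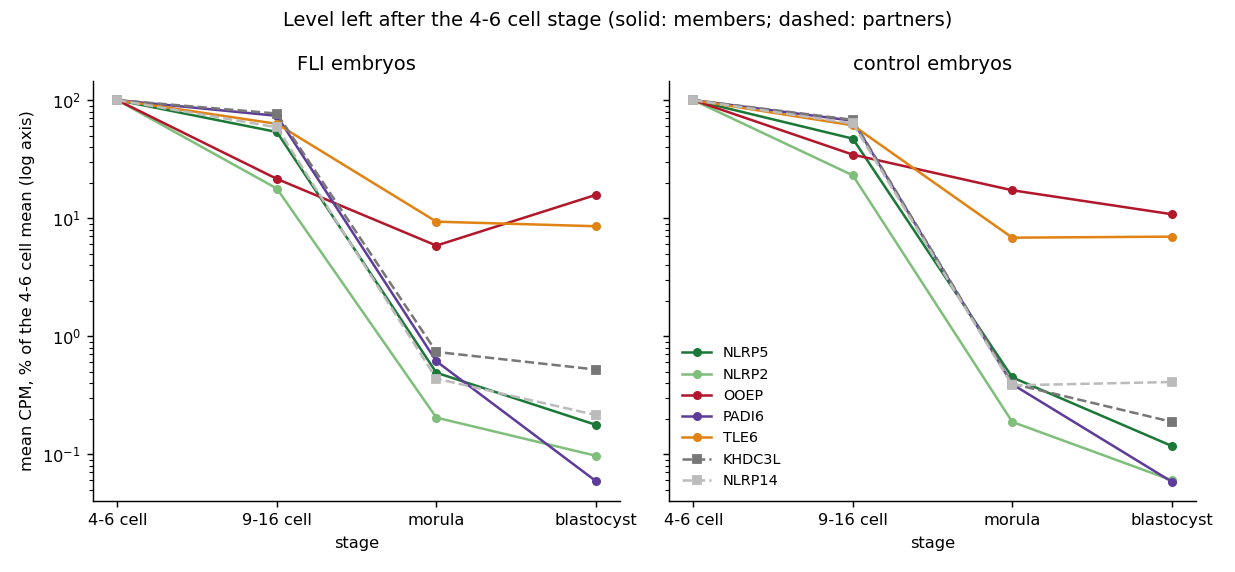
Mean CPM at each stage as a percentage of the mean at the 4-6 cell stage (log axis), in FLI embryos (left panel) and control embryos (right panel), for 5 members (solid) and 2 partner genes of the complex, KHDC3L and NLRP14 (dashed). NLRP5, NLRP2, PADI6 and both partners end below 1%, while OOEP ends at 15.7% in FLI and 10.8% in control blastocysts and TLE6 at 8.53% and 6.97%.

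The order of the genes by level, read as mean CPM per kilobase of exon, changed over the stages. At the 4-6 cell stage OOEP led with 282 ± 316 in FLI pools and 342 ± 391 in control pools (SD, n = 4 each), followed by PADI6, TLE6, NLRP5 and NLRP2. The first place of OOEP rested on replicate 6 of each treatment. Without these, PADI6 led with 235 ± 25.4 in FLI pools and 225 ± 6.84 in control pools, above OOEP at 125 ± 20.5 and 147 ± 42.2 (n = 3 each). With all libraries the ranges of each of these 5 genes overlapped those of the next in the order, and ZBED3, at 1.14 ± 0.553 in FLI and 1.28 ± 0.322 in control pools (n = 4 each), overlapped none.

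At the 9-16 cell stage PADI6 led with 151 ± 31 per kilobase in FLI pools and 130 ± 46.6 in control pools (SD, n = 4 each). In control pools OOEP came next at 118 ± 111 and overlapped PADI6, and without replicate 11 it stood at 62.3 ± 6.07 (n = 3). TLE6, OOEP and NLRP5 followed with overlapping ranges in FLI pools, and NLRP2, at 10.1 ± 2.37 in FLI and 13.5 ± 3.01 in control pools, lay below all pools of these 4. In morulae OOEP led with 16.5 ± 3.43 in FLI pools (n = 4) and 58.8 ± 28.6 in control pools (n = 3), and TLE6 followed with 10.8 ± 3.33 and 7.92 ± 2.42. The FLI ranges of OOEP and TLE6 overlapped and the control ranges did not. In blastocysts OOEP and TLE6 again ranked first and second, and NLRP5, PADI6 and NLRP2 were at or below 0.303 per kilobase in every pool.

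ZBED3 was near the limit of detection throughout. Its reads numbered 87, 24, 8 and 12 in FLI replicates 6 to 9 and 49, 16, 15 and 22 in control replicates 6 to 9 of the 4-6 cell stage. In 9-16 cell pools they numbered 2, 8, 16 and 4 in FLI replicates 10 to 13 and 0, 12, 15 and 9 in control replicates 10 to 13. The mean was 0.302 ± 0.24 CPM at the 9-16 cell stage against 0.736 ± 0.356 at the 4-6 cell stage in FLI pools, and 0.519 ± 0.478 against 0.824 ± 0.208 in control pools (SD, n = 4 each). The ranges overlapped in both treatments, and the two-sided exact permutation test gave p = 0.171 in FLI and p = 0.286 in control pools over 70 arrangements, whose smallest possible p is 0.0286. The 0 reads in control replicate 10 allow up to 0.151 CPM.

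Steps between stages were tested for the 5 members listed in all tables with limma on log2(CPM + 1), over 13388 genes with a mean of at least 1 CPM. Log2 differences on this scale understate the change of genes near or below 1 CPM. Each stage was collected on its own, and an effect of collection on a step cannot be told apart from one of stage.

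From the 4-6 cell to the 9-16 cell stage, 2 of 5 members fell in FLI embryos, against a background of 16% of all genes tested called lower. These were NLRP2, at -2.48 on the log2 scale (SE 0.20, adjusted p = 1.04e-10 with limma), and OOEP, at -1.69 (SE 0.62, adjusted p = 0.0384). NLRP5 had a log2 difference of -0.80 (SE 0.32, adjusted p = 0.0558), TLE6 of -0.61 (SE 0.36) and PADI6 of -0.40 (SE 0.29). In control embryos 2 of 5 fell as well, against 12.3% of all genes, and these were NLRP2, at -2.11 (SE 0.20, adjusted p = 3.26e-09), and NLRP5, at -1.11 (SE 0.32, adjusted p = 0.0103). OOEP had -1.32 (SE 0.62), TLE6 -0.68 (SE 0.36) and PADI6 -0.58 (SE 0.29) in controls. Single pools moved several of these calls. The FLI call of OOEP was lost without 4-6 cell replicate 6 (-1.04, adjusted p = 0.209) and without 9-16 cell replicate 10, 12 or 13 (adjusted p from 0.0689 to 0.0889). NLRP5 was called in FLI embryos without 4-6 cell replicate 6 (-1.17, adjusted p = 0.00325) or without 9-16 cell replicate 11 (-0.93, adjusted p = 0.0452). In controls PADI6 was called without 4-6 cell replicate 6 (-0.85, adjusted p = 0.0255) and OOEP without 9-16 cell replicate 11 (-1.87, adjusted p = 0.0259).

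This first step depended on the 3 libraries that stood apart. Without them all 5 members were called lower in both treatments. Of 13347 genes tested in that fit, 2588 in FLI and 2117 in control embryos were called lower. The main fit called 2144 and 1651 of 13388 lower. The member values without the 3 libraries were -1.22 in FLI and -1.23 in control embryos for NLRP5, -2.63 and -2.23 for NLRP2, -1.10 and -1.25 for OOEP, -0.71 and -0.72 for PADI6, and -0.95 and -0.90 for TLE6. The adjusted p nearest the threshold was 0.0499 with limma, for TLE6 in controls.

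From the 9-16 cell stage to the morula 5 of the 5 members tested were called lower in FLI embryos, against 32.6% of all genes tested. The log2 difference was -6.46 (SE 0.29) for PADI6, -6.10 (SE 0.32) for NLRP5 and -4.69 (SE 0.20) for NLRP2, with adjusted p-values of 1.13e-16, 2.42e-15 and 4.25e-17 from limma. TLE6 had -2.72 (SE 0.36, adjusted p = 2.15e-07) and OOEP -1.81 (SE 0.62, adjusted p = 0.0108). In control embryos 4 of 5 fell, against 34.6% of all genes, with differences of -6.67 (SE 0.31) for PADI6, -5.98 (SE 0.34) for NLRP5, -5.11 (SE 0.22) for NLRP2 and -3.07 (SE 0.39) for TLE6. OOEP had -0.77 (SE 0.67, adjusted p = 0.305) in controls, and -0.32 (SE 0.43) without the libraries that stood apart. The median member moved by -4.69 in FLI and -5.11 in control embryos, while the median of all genes tested moved by 0.23 and 0.13.

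From the morula to the blastocyst PADI6 was the single member called. It fell, at -1.49 in FLI embryos (SE 0.29, adjusted p = 0.000193) and -1.04 in control embryos (SE 0.34, adjusted p = 0.0182), 1 of 5 members in each, against 22% and 15.2% of all genes called lower. In controls this call was lost without morula replicate 7 (-0.84, adjusted p = 0.0801) or without blastocyst replicate 7 (-0.91, adjusted p = 0.0843). NLRP5 had -0.77 (SE 0.32, adjusted p = 0.0541) in FLI and -0.89 (SE 0.37, adjusted p = 0.0632) in control embryos, and was called without blastocyst replicate 5 of either treatment (-0.90, adjusted p = 0.0363, in FLI and -1.08, adjusted p = 0.0441, in control embryos). OOEP had 1.204 (SE 0.62, adjusted p = 0.124) in FLI and -0.58 (SE 0.72, adjusted p = 0.567) in control embryos.

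Without the 3 early libraries, which this step does not compare but which enter the shared estimate of spread, OOEP was called higher in FLI blastocysts than in FLI morulae at 1.30 (SE 0.37, adjusted p = 0.00519 with limma). NLRP5 was then called lower in both treatments, at -0.67 in FLI and -0.90 in control embryos. Calls rose over all genes too. Of 13347 genes tested, 3467 were called higher and 3282 lower in FLI embryos, and 3147 lower in control embryos. In the main fit these were 2512, 2940 and 2038 of 13388. For OOEP the per-pool CPM values were 18, 56.1, 33.1 and 78.2 in FLI blastocyst replicates 5 to 8, against 12.7, 17.1, 21.4 and 17.7 in FLI morula replicates 2, 4, 6 and 7. The groups overlapped at the low end. With the short minus long value of each library as a covariate the OOEP difference was 0.51 (SE 0.23, adjusted p = 0.0583).

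Whether a step differed between treatments was tested as an interaction in the same fit. For each of the 3 steps, 0 of 5 members and 0% of all genes were called by limma, and 86, 881 and 2922 genes had an unadjusted p under 0.05 in the order of the steps. For these differences edgeR called 0 genes at each step and DESeq2 called 1, 4 and 327, none of them a member. OOEP had the widest estimates, FLI minus control, at -0.37 (SE 0.88), -1.05 (SE 0.91) and 1.79 (SE 0.95, adjusted p = 0.256). Without the 3 early libraries the last of these was 1.93 (SE 0.57, adjusted p = 0.035 with limma) and was among 2407 genes called in all. That step does not compare those libraries, which enter it through the shared scaling and estimate of spread. With the short minus long value as a covariate this OOEP estimate changed sign.

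FLI was then compared with control within each stage on the deposited signal, the reads scaled by the authors within each table, as log2(signal + 1) with limma. A mean signal of at least 1 was reached by 13385, 14139, 13254 and 13029 genes in the order of the stages, and these were tested. The members that passed were 5, 5, 4 and 2 in number. None was called at any stage, and 0% of all genes were called. An unadjusted p under 0.05 was reached by 12, 293, 4203 and 2049 genes. edgeR's quasi-likelihood test on recovered reads called 0, 0, 891 and 0 genes over the 4 stages and DESeq2 called 0, 0, 2547 and 474. In blastocysts limma called 386 genes without FLI replicate 8 and 177 without control replicate 5, none of them a member.

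**Figure D4:**
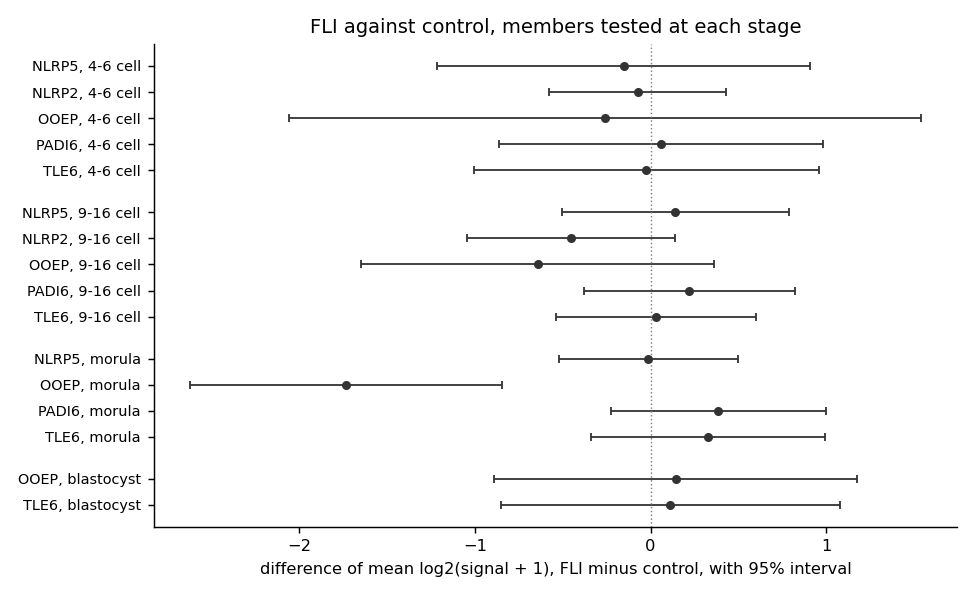
Difference of mean log2(signal + 1), FLI minus control, for each member that passed the filter at each stage, with its 95% interval from limma. The interval of OOEP in morulae, -2.62 to -0.85, lies below 0, and the other 15 intervals include 0.

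At the 4-6 cell stage the 5 members had differences between -0.26 and 0.06 on the log2 scale, FLI minus control. NLRP5 signal read 162, 482, 533 and 504 in FLI replicates 6 to 9, against 227, 493, 570 and 506 in control replicates 6 to 9. The difference was -0.15 with a 95% interval of -1.22 to 0.91. With pools matched by number, a pairing that the labels do not give, NLRP5 was lower in the FLI pool all 4 times. The other 4 members were not in 1 direction throughout. With the replicate block the NLRP5 difference of -0.15 had an SE of 0.10 (adjusted p = 0.998 with limma), against an SE of 0.46 without it. The OOEP difference of -0.26 had an SE of 0.12 with the block and 0.78 without it. Ignoring pairs, the groups overlapped for every member, and without replicate 6 of each group the differences lay between -0.23 for OOEP and 0.04 for PADI6, with SEs of 0.10 to 0.18.

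At the 9-16 cell stage NLRP2 read 29, 48.2, 39.7 and 52.4 in FLI replicates 10 to 13, against 61.4, 57.1, 39.6 and 75.3 in control replicates 10 to 13. The groups overlapped and the difference was -0.45 (SE 0.27, adjusted p = 0.91 with limma). OOEP read 75.3, 96, 73.1 and 55 in FLI pools, against 86.1, 368, 75.6 and 73.2 in control pools, a difference of -0.64 (SE 0.46). Without control replicate 11 the OOEP difference was -0.09 (SE 0.21). NLRP5, PADI6 and TLE6 differed by 0.14, 0.22 and 0.03.

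In morulae OOEP was lower in every FLI pool than in every control pool. It read 9.99, 13.8, 19.1 and 16.3 in FLI replicates 2, 4, 6 and 7, against 76.3, 66.1 and 25.1 in control replicates 1, 3 and 7. The mean was 14.8 ± 3.88 in FLI pools (SD, n = 4) and 55.8 ± 27.1 in control pools (n = 3). The groups did not overlap. As background, 4203 of the 13254 genes tested at this stage had an unadjusted p under 0.05 with limma. The log2 difference was -1.73 (SE 0.40, 95% interval -2.62 to -0.85), and the adjusted p of 0.063 with limma missed the threshold.

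The OOEP morula difference changed its call with the method and with 1 library. It was called by edgeR (-1.92, adjusted p = 0.0464) and by DESeq2 (-1.97, adjusted p = 0.00031), and by limma without control replicate 7 (-2.22, adjusted p = 0.00418). Without that library limma called 4620 genes in all at this stage. In the authors' deposited table, whose fold change is control minus FLI and which includes the shallow library, OOEP had a log2 value of 2.07 and a false discovery rate of 0.000372. The 2 control pools with the most OOEP also had the highest short minus long values, 1.19 and 0.95. Control replicate 7, at -0.41 with an OOEP signal of 25.1, lay close to FLI replicate 6, at -0.40 with 19.1, while FLI replicate 7 had a higher value of 0.12 and less OOEP, 16.3. With that value as a covariate the difference was -0.83 (SE 0.32, adjusted p = 0.521 with limma).

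**Figure D5:**
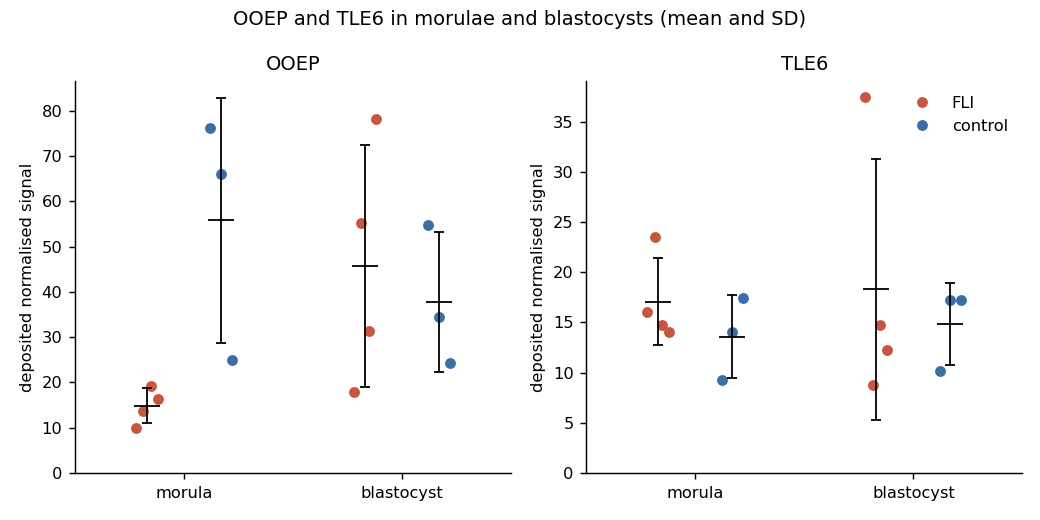
Deposited normalised signal of OOEP (left) and TLE6 (right) in morula and blastocyst pools, FLI left of control, with mean and SD (n = 4 FLI and 3 control pools per stage). OOEP in FLI morulae lies between 9.99 and 19.1, below all 3 control morulae at 25.1 to 76.3, and in blastocysts the treatments overlap, as they do for TLE6 at both stages.

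The other morula members overlapped between treatments. TLE6 read 16, 23.5, 14.7 and 14 in FLI replicates 2, 4, 6 and 7, against 9.22, 14 and 17.5 in control replicates 1, 3 and 7. Its difference was 0.33 (SE 0.30, 95% interval -0.34 to 0.99). PADI6 differed by 0.39 (SE 0.27) and NLRP5 by -0.01 (SE 0.23, 95% interval -0.52 to 0.50). NLRP2 did not reach the filter, with 7 to 20 reads in FLI and 13 to 29 reads in control pools.

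In blastocysts OOEP read 17.9, 55.3, 31.3 and 78.2 in FLI replicates 5 to 8, against 54.7, 34.4 and 24.3 in control replicates 5, 7 and 8. The groups overlapped, and the difference was 0.14 (SE 0.47, 95% interval -0.89 to 1.18). TLE6 read 37.5, 8.77, 14.8 and 12.2 in FLI pools, against 10.1, 17.2 and 17.3 in control pools, a difference of 0.11 (SE 0.44, 95% interval -0.85 to 1.08). The blastocyst levels of both genes were thus not called different between treatments, within those intervals. OOEP was highest in FLI replicates 6 and 8 and control replicate 5, which had the highest short minus long values of this stage, 0.54, 0.32 and 0.22. It was lowest in FLI replicate 5 and control replicate 8, at -1.07 and -1.04. TLE6 was highest in FLI replicate 5. The part of this value in the spread between pools was not tested. NLRP5, NLRP2 and PADI6 did not reach the filter, and without it their differences were 0.17, 0.07 and 0.02.

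The partners of the complex were read from a list of 12 lattice and complex genes, of which 9 were tested across stages. As background for this and the following lists, the share of all genes called higher was 15.2% in FLI and 13.7% in control embryos at the first step, 40.6% and 39% at the step to the morula, and 18.8% and 17.6% at the last, beside the shares called lower given above. At the step from the 9-16 cell stage to the morula 5 of the 9 were called lower and 3 higher in each treatment, where 32.6% of all genes in FLI and 34.6% in control embryos were lower. KHDC3L, the KH-domain partner whose span holds OOEP, fell, at -7.10 in FLI (SE 0.52, adjusted p = 3.04e-12 with limma) and -7.35 in control embryos (SE 0.57) on the log2 scale. It averaged 13.8 ± 15.9 CPM in FLI and 6.76 ± 5.39 CPM in control morulae, against 1446 ± 270 and 1165 ± 553 at the 9-16 cell stage. In FLI morulae KHDC3L thus held 0.735% of its 4-6 cell mean and in control morulae 0.395%, while OOEP held 5.85% and 17.2%.

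NLRP14, another oocyte NLR gene, fell at that step, at -6.53 in FLI and -6.78 in control embryos. UHRF1, a maintenance methylation factor that is held in the cytoplasm of mouse oocytes, had -5.26 and -5.36, also called. CFL1, the actin-severing protein cofilin, rose by 2.07 in FLI embryos, and SKP1, a subunit of ubiquitin ligases, rose by 2.65 in control embryos. The means of both rose in both treatments. As a share of the 4-6 cell mean, CFL1 went from 137% at the 9-16 cell stage to 568% in FLI morulae. In control embryos it went from 131% to 535%. SKP1 went from 136% to 380% in FLI and from 148% to 902% in control embryos. At the earlier step NLRP14 was the single partner called, at -0.82 in FLI (adjusted p = 0.0104) and -0.64 in control embryos (adjusted p = 0.0496). From morula to blastocyst 1 of 9 was called in FLI embryos, NLRP14 at -0.65, and 2 of 9 in control embryos, SKP1 at -1.59 and YWHAH, a 14-3-3 protein, at 1.14.

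Among other NLR genes, 6 of 13 listed were tested across stages. At the step to the morula 4 were called lower in each treatment, with 1 higher in FLI and 2 higher in control embryos. NLRP8 had -7.80 in FLI and -7.89 in control embryos, NLRP9 -7.23 and -7.36, NLRP13 -4.24 and -4.85, and NLRC5, an interferon-linked regulator of MHC class I genes, -2.10 and -3.25. Like NLRP2, NLRP13 and NLRP9 were already called lower at the 9-16 cell stage, at -1.22 and -1.12 in FLI and -1.74 and -1.07 in control embryos. NLRP8 was not called at that first step, and its 9-16 cell mean was 137% of the 4-6 cell mean in FLI and 112% in control pools. Sequences of these NLR genes are related, and the sources used here do not say how reads shared between them were counted.

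Relatives of PADI6 and TLE6 were called in both directions. Of 10 listed PADI and TLE genes 7 were tested, and at the step to the morula 3 were called higher and 1 lower in FLI embryos and 2 higher and 2 lower in control embryos. TLE3 rose by 2.29 in FLI and 1.33 in control embryos, PADI2 by 0.80 and 0.86, and PADI1 fell, at -0.93 and -1.08. The median of the list was 0.25 in FLI and -0.03 in control embryos, beside 0.23 and 0.13 over all genes tested.

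Other maternal oocyte transcripts also fell at the step to the morula. Of 26 listed 20 were tested, and 20 of 20 were called lower at the step to the morula in each treatment, with a median of -6.73 in FLI and -6.47 in control embryos. KPNA7, an oocyte importin, had -8.06 in FLI and -7.93 in control embryos, and BMP15, a growth factor of the oocyte, had -8.02 and -7.82. At the step before, 7 of 20 were lower in FLI and 8 of 20 in control embryos, led by ZAR1, an RNA-binding protein of the oocyte, at -1.74 and -1.58, and WEE2, a kinase that holds meiotic arrest, at -1.63 and -1.49. At the last step 6 of 20 fell in FLI and 10 of 20 in control embryos.

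Of 17 listed genome activation genes 10 were tested, and 7 were called higher in FLI and 8 in control embryos at the 9-16 cell stage, with 0 lower, against 15.2% and 13.7% of all genes called higher. HSPA1A, a heat shock gene, had 0.29 and -0.29, and RPL39, a ribosomal protein gene, had 0.86 and 1.30, and neither was called. KLF17 rose by 8.93 in FLI and 8.15 in control embryos and ZSCAN4, a marker of genome activation, by 5.74 and 5.56. At the step to the morula 5 rose and 5 fell in each treatment. Of those that rose there, KLF5 had 2.97 in FLI and 2.72 in control embryos and RPL39 had 3.71 and 5.11, while KLF17 had -2.56 and -2.83.

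Of 15 listed regulators of maternal mRNA decay 14 were tested, and at the 9-16 cell stage 6 were called higher and 3 lower in FLI embryos and 5 higher and 2 lower in control embryos. The lower calls lay near the background of 16% and 12.3% of all genes. YTHDF2, a reader of methylated mRNA, rose by 3.09 in FLI and 2.92 in control embryos, and TUT7, which adds uridines to mRNA tails, rose by 2.90 and 2.81. CNOT6L, a deadenylase, fell, at -3.84 in FLI and -3.76 in control embryos, at the step to the morula, where 4 of the list rose and 6 fell in FLI embryos and 3 rose and 7 fell in control embryos.

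Of 11 Wnt and actin genes tied to ZBED3 and TLE6, all 11 were tested. At the step to the morula 4 rose and 3 fell in FLI embryos and 3 rose and 6 fell in control embryos. ACTG1 rose by 4.72 in FLI and 4.19 in control embryos, and ACTB, the other cytoplasmic actin, by 3.14 and 3.02. SSH1, a cofilin phosphatase, fell, at -2.83 and -3.32. Within stages, 0 genes of any list were called between FLI and control.

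Across the 30 libraries, the level of NLRP2 followed the mean of the other members most closely, with a Pearson correlation of 0.989. NLRP5 had 0.9749, PADI6 0.959, TLE6 0.928 and OOEP 0.645, and these values describe libraries that share stage and depth. The genes outside the group whose log2(CPM + 1) was most like the members' mean were CCNP at 0.995, CCDC85A at 0.994, WEE2 at 0.994 and SRPK2 at 0.992, then HSPA4L, SOX30, CCNI2 and KLHL32 at 0.991. CCNP averaged 186, 71.3, 1.06 and 0.809 CPM over the 4 stages in FLI pools and 197, 65, 1.46 and 0.602 CPM in control pools. SRPK2 had the same order of stages but kept 38.5 and 37.8 CPM in FLI and 48.5 and 42.7 CPM in control morulae and blastocysts.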

How the data were processed

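The authors deposited 1 table per stage with a normalised signal per gene and pool, their log2 fold change, a likelihood ratio (a score), p-values and gene positions, per the file headers. FastQC, HISAT2, featureCounts, edgeR and ARS-UCD1.2 are named in the submitters' processing notes; the sources used here give no strand setting or versions. In every column 100% of deposited signal values were whole multiples of the smallest one (tolerance 0.001), which gave whole reads.

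FLI was compared with control within each table with limma 3.58.1 (trend, robust) in R 4.3.3 on log2(signal + 1), for genes with a mean of at least 1. Steps between stages used recovered reads, joint TMM (edgeR 4.0.16), log2(CPM + 1) and 1 limma fit of 8 group means. A gene was called where its Benjamini-Hochberg adjusted p was under 0.05. edgeR, DESeq2 1.42.0, a pseudocount of 0.5, no filter, no TMM, all libraries, a replicate block and leaving out each pool were alternatives. Leaving out the 3 libraries that stood apart and the short-gene covariate were added after seeing the data. Members, lists and the naming rule (every member, up to 4 called genes per list with the largest change, and the 8 genes most correlated with the members' mean) were chosen with earlier results of these data known. The fit was tested on simulated data. Same-numbered FLI and control pools of the 4-6 cell stage deviated together from their group means (correlations 0.473 to 0.924), and the block used those numbers as pairs. FLI replicate 8 correlated best with control replicate 7. Replicate 6 stood apart in both groups, which moves the other pools to the same side of the mean whatever their number. These correlations therefore cannot show that the pools were paired, and the labels give only a number.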

Additional observations from a re-analysis of the deposited data

Results flagged for a closer look

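In 34 groups of 4 pools, each tested for 1 value far from the others, 6 held such a value, and chance flags about 1 in 20 groups. At the 4-6 cell stage OOEP signal was far above the rest in FLI replicate 6, at 843.4, and in control replicate 6, at 1079. NLRP5 was far below the rest in FLI replicate 6, at 162.5, and PADI6 in control replicate 6, at 237.4. At the 9-16 cell stage OOEP stood far above the rest in control replicate 11, at 368. These 5 values come from the 3 libraries with a high level of short genes, and the part of that level in them was not tested. In blastocysts PADI6 read 0.4853 in FLI replicate 5, above the other 3 FLI pools.

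Outside the comparisons, the shallow control morula replicate 4, with 83409 reads, held 12 OOEP reads, a signal of 85.6, and 4 TLE6 reads, a signal of 28.53.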

How the results depend on the processing

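Of the counts of calls under other settings, 156 stayed within 1.5 times their main value and 42 did not; of single-gene values 317 kept direction and call, 27 gained a call, 7 lost one and 21 changed sign. The cause of a change was not tested unless the setting's construction shows it. FLI minus control in morulae gave 891 genes and 1 member with edgeR and 2547 and 1 with DESeq2; leaving out 1 pool gave 0 to 4620 genes and 0 to 1 members. In blastocysts DESeq2 called 474 genes and all 8 libraries 3, and leaving out 1 pool gave 0 to 386.

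At the step to the 9-16 cell stage FLI members called were 1 with all 32 libraries (904 genes), 5 without the libraries that stood apart and 4 with the short-gene covariate (6735 genes), and 1 to 3 without 1 pool. Control members were 1 with edgeR, 1 with DESeq2, 1 with all 32 libraries (693 genes), 5 without those libraries and 4 with the covariate (6113 genes), and 2 to 3 without 1 pool. All 32 libraries gave 5727 FLI and 5956 control genes at the morula step. From morula to blastocyst FLI members were 2 with edgeR, 3 with DESeq2, 2 with a pseudocount of 0.5, 0 with all 32 libraries (963 genes) and 3 without the libraries that stood apart, and 1 to 2 without 1 pool. Control members were 2 with edgeR, 3 with DESeq2, 0 without TMM, 2 with a pseudocount of 0.5, 2 without those libraries and 4 with the covariate, and 0 to 2 without 1 pool; all 32 libraries gave 1560 genes. Differences between treatments gave 1 gene with DESeq2 at the first step. At the second they gave 4 with DESeq2 and 1 each without TMM, without a filter, without the libraries that stood apart and with the covariate, and 0 to 16 without 1 pool. At the third they gave 327 with DESeq2, 2407 and 1 member without those libraries, and 0 to 975 without 1 pool.

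The values below changed sign, and not all of them were near 0 in the main fit. Those given first are FLI minus control within a stage. With the covariate these were PADI6 at -0.00376 (4-6 cell), NLRP5 at -0.01732 and TLE6 at -0.06252 (9-16 cell), TLE6 at -0.1519 (morula) and OOEP at -0.3731 (blastocyst). For 9-16 cell pools TLE6 gave -0.002372 with DESeq2 and -0.09211 without the library that stood apart, where NLRP5 gave -0.04984. With all 8 morula libraries NLRP5 gave 0.3143 and PADI6 -0.4228. From morula to blastocyst TLE6 in FLI embryos gave 0.02277 with DESeq2 and 0.06803 with the covariate. In controls it gave -0.01408 with edgeR, -0.02008 with DESeq2, -1.198 with all 32 libraries, -0.007133 without the libraries that stood apart and -0.6176 with the covariate, where OOEP gave 0.6891. The OOEP difference of steps gave 0.1502 at the first without those libraries and -0.1741 at the last with the covariate. The main fit had the last of these at 3.45-fold, in the other direction.

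Leaving out 1 pool, FLI minus control at the 4-6 cell stage ran from -0.4527 to 0.2546 for NLRP5, -0.1725 to 0.06384 for NLRP2, -0.8669 to 0.3763 for OOEP, -0.2537 to 0.3492 for PADI6 and -0.3531 to 0.2989 for TLE6. For 9-16 cell pools it ran from -0.04984 to 0.3595 for NLRP5 and -0.102 to 0.1938 for TLE6, in morulae from -0.1299 to 0.155 for NLRP5, and in blastocysts from -0.1777 to 0.5109 for OOEP and -0.2885 to 0.3706 for TLE6. The last step of TLE6 ran from -0.6778 to 0.08476 in FLI and -0.2177 to 0.2271 in control embryos, and the first difference of steps for OOEP from -1.042 to 0.2792.

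With the replicate block, FLI minus control was -0.0134 for OOEP in blastocysts; the block changed no call at the 4-6 cell, 9-16 cell and blastocyst stages, with 0 genes called. Correlations of same-numbered pools were 0.285, 0.075, 0.143 and 0.063 at the 9-16 cell stage and -0.736, 0.355 and -0.08 in blastocysts. The labels give only a number, so whether those pools were paired is not known. Deep morula pools share 1 number, which allowed no block. Joint TMM moved the median gene at the control morula step to 0.13, against -0.56 without it, and at the FLI step to 0.23, against -0.12. Reads per blastocyst library numbered 10 to 159 for NLRP5, 0 to 42 for NLRP2 and 2 to 72 for PADI6, which limits the precision of their values there.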
